A study of Mus musculus with 13 samples.

Results

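In all, 10 genes of the pathway through which gp130-type cytokine receptors act on the transcription factor STAT3 were followed in C2C12 cells, a line of mouse myoblasts. They were the receptor genes Il6st, Lifr and Osmr, Stat3 itself, the inhibitor genes Socs1, Socs2, Socs3 and Cish, and the further targets Bcl3 and Pim1. They are 10 of 18193 genes, and every probe set whose platform annotation named exactly 1 of them was taken, which gave 28 of 45037 probe sets. Each gene has 1 to 6 such probe sets and is given as the mean of their log2 ratios, and single probe sets are described where they differ.

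The cells had been grown to 90% confluence in DMEM with 5% FBS (fetal bovine serum), kept for 24 h in 0.2% FBS and then given FBS again, at a concentration the labels do not restate. The labels describe flasks run side by side and sampled at 30 min steps over 8 h, and the 13 arrays used here cover 0 to 6.0 h, a single array for each time and no replicate of any. By labelled time the arrays were placed in 4 windows, namely 0 h with 1 array, and an early (0.5 to 2.0 h), a middle (2.5 to 4.0 h) and a late window (4.5 to 6.0 h) with 4 arrays each. All windows share the same cell line and the same low-serum day, and no array of cells kept in low serum for the later hours was analysed here, so time in culture and the return of serum cannot be told apart.

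The deposited values are ratios whose reference is not stated. Of 45037 probe sets, 36481 show a ratio of exactly 1 on just 1 array, and for 99.9% of these 5 to 7 of the other 12 arrays lie below 1. The reference therefore appears to be a value near the middle of each probe set over the series. A log2 ratio above or below 0 is then above or below that middle value, not above or below 0 h, and it holds changes but no level. Levels of different genes were not compared, and whether myoblast markers are present could not be read. In a culture, fewer cells of a kind and less RNA per cell cannot be told apart. The p-values of window comparisons measure the spread of arrays within a window and not variation between replicate cultures. The number of arrays limits the precision, and the spread of the lone 0 h array is taken to be that of the rest. Array median ratios lay between 0.977 and 1.00. The log2 ratios were spread most widely on the 0 to 1.0 h arrays (SD 0.262 to 0.318, against 0.188 to 0.238 on the 1.5 to 6.0 h arrays).

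Il6st encodes gp130, the signalling chain shared by the receptors of interleukin 6, interleukin 11, LIF and oncostatin M. Lifr and Osmr encode chains that pair with gp130 to bind LIF and oncostatin M. Ligand binding activates Janus kinases on these chains, which phosphorylate STAT3, and STAT3 dimers then enter the nucleus. Socs3 and Socs1 are induced by STATs and shut the receptors and kinases off again, which closes a negative feedback loop. Cish and Socs2 are inhibitors best known from STAT5 signalling and from growth hormone receptors. Bcl3 encodes an atypical member of the I-kappaB family that acts in the nucleus, and Pim1 encodes a serine/threonine kinase that promotes survival and growth. In skeletal muscle, LIF and interleukin 6 are known to act on myoblast proliferation. Pulses of Socs3 and of phosphorylated Stat3 after serum have been described in mouse fibroblasts.

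The promoters of 4 of the genes are shown because their letters can be set beside the courses that follow. Of the 9 members whose promoters were searched, Socs3 and Cish held the STAT motif TTCNNNGAA, and Osmr and Bcl3 had the most similar courses of any pair of members. The sequences are from RefSeq (GRCm38.p6) and run 5′ to 3′ in the sense of the gene, with motif matches in capitals. The Socs3 and Bcl3 stretches are the 250 bases before the start site, at chr11:117969367-117969616 and chr7:19822756-19823005, both on the minus strand. The Cish stretch, chr9:107296409-107296678 on the plus strand, runs 20 bases past the start, and the Osmr stretch, chr15:6874304-6874563 on the minus strand, runs 10 bases past it.
Socs3: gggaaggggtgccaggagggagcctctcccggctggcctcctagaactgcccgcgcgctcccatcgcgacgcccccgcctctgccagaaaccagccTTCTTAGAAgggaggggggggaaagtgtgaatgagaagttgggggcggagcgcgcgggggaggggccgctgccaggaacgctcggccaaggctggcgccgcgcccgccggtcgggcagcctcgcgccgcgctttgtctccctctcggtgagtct
Cish: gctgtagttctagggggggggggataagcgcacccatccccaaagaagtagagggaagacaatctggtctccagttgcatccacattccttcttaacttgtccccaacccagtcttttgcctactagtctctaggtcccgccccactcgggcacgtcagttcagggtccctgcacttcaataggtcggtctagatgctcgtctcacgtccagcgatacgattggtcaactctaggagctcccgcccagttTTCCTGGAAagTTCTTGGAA
Osmr: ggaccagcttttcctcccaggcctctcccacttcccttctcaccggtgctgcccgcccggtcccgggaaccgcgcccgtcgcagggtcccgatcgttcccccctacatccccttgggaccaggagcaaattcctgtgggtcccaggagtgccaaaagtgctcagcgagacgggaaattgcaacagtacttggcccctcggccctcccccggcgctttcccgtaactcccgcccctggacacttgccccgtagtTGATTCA
Bcl3: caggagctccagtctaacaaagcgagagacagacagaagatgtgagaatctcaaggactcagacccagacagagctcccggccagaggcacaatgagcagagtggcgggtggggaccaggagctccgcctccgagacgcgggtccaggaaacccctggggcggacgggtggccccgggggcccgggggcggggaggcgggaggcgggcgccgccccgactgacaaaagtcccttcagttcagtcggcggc

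In all, 3 motifs were searched on both strands, from 250 bases before to 50 after each start site. They were the STAT motif TTCNNNGAA, the cyclic AMP response element TGACGTCA and the AP-1-like motif TGANTCA, where N is any base. No match overlapped another. Of 32851 mouse promoter windows, 8.3% held the STAT motif, 1.79% the cyclic AMP element and 7.81% the AP-1-like motif. The promoter table held 9 members, with 11 windows in all, and the promoter of Socs2 was not searched. Socs3 held TTCTTAGAA beginning 154 bases before its start. Cish held TTCCTGGAA at base 1 and TTCTTGGAA at base 12 counted from its start. Osmr held TGATTCA at base 4, a match to the AP-1-like motif with T at the open middle base. None of the 9 searched members held the cyclic AMP element. These are matches of letters and not measured binding sites.

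Among the inhibitors, Socs3 changed most between neighbouring arrays. Its log2 ratio was 0.21 at 0 h, -0.11, -0.032, 0.035 and 0.097 in the early window, 0.40, 0.32, -0.49 and -0.53 in the middle window, and -0.20, -0.36, -0.33 and -0.21 in the late window. The course thus had its highest value at 2.5 h and its lowest at 4.0 h, and the middle window holds both. Against 0 h, Socs3 was at 1.14-fold at 2.5 h and at 0.599-fold at 4.0 h.

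The step of Socs3 between 3.0 and 3.5 h was -0.81, or 0.570-fold. Of all genes, 0.0275% had as large a step downward between these arrays, while the median step of all genes was -0.017. All of the 3 Socs3 probe sets took part, at -0.60 (1416576_at), -0.88 (1455899_x_at) and -0.95 (1456212_x_at). The last of them had 0.30 and 0.16 at 2.5 and 3.0 h, then -0.79 and -0.71 at 3.5 and 4.0 h. One array stands on each time point, so the step has no replicate and no test. It was picked as the largest step of Socs3 between neighbouring arrays. The share of genes with so large a step at any interval was not counted, here or for other members. Because the step falls inside the middle window, the window means hide it. Middle minus early was -0.076 ± 0.17 (adjusted p = 0.79), and late minus 0 h was -0.48 ± 0.27 (adjusted p = 0.25).

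No window comparison of Socs3 was called, and its gene mean lay below the 0 h value on every early array. Early minus 0 h was -0.21 ± 0.27 (adjusted p = 0.73), with a 95% interval of -0.79 to 0.38. The 3 probe sets differed most at 0.5 h, where they stood at 0.19 (1416576_at), -0.51 (1455899_x_at) and 0.00 (1456212_x_at).

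Socs2 was lowest at 0 h. Its log2 ratio was -0.62 at 0 h, -0.051, -0.30, 0.019 and 0.072 in the early window, 0.19, -0.17, 0.15 and 0.083 in the middle window, and 0.017, 0.026, 0.035 and -0.17 in the late window. The 0 h array lay below every later one. Late minus 0 h was 0.60 ± 0.14 (adjusted p = 0.0113), or 1.51-fold, and Socs2 was the only inhibitor among the members that rose in any window comparison. Early minus 0 h was 0.56 ± 0.14 and missed the threshold (adjusted p = 0.0511). This value was called without the 0.5 h array (adjusted p = 0.0429), the 1.0 h array (0.0282), the 3.0 h array (0.0362) or the 6.0 h array (0.0494). It was also called with 1 probe set per gene (0.0360). In 12 of 17 settings it stayed uncalled, with adjusted p = 0.307 after quantile normalization and 0.0943 without the 1.5 h array.

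The 6 Socs2 probe sets did not move alike. Between 0 h and the late window 4 of 6 rose, by 0.59 (1418507_s_at), 1.11 (1438470_at), 0.67 (1442586_at) and 1.01 (1449109_at). Probe set 1449109_at climbed slowly, with -0.86 at 0 h, -0.46, -0.54, -0.35 and -0.25 in the early window, -0.077, -0.044, 0.15 and 0.22 in the middle window, and 0.26, 0.22, 0.12 and 0.00 in the late window. In that probe set the middle arrays all lay above the early ones, and middle minus early was 0.46 ± 0.089 (adjusted p = 0.00256). Probe set 1442586_at was already at 0.22 at 0.5 h, against -0.70 at 0 h. Probe set 1441476_at stayed between -0.18 and 0.20 on all arrays, and 1446085_at scattered between -0.84 and 0.82 with no window comparison called. The gene mean joins these unlike courses.

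Cish, measured by 1 probe set, also began low. It stood at -0.37 at 0 h, at -0.33, 0.00, 0.089 and 0.15 in the early window, at 0.26, 0.21, 0.23 and -0.029 in the middle window, and at 0.11, 0.019, -0.059 and -0.10 in the late window. The 0 and 0.5 h arrays lay below all others, and the highest value, at 2.5 h, was 1.54-fold over 0 h. No window comparison of Cish was called with all arrays. Early minus 0 h was 0.35 ± 0.15 (adjusted p = 0.216) and late minus 0 h was 0.36 ± 0.15 (adjusted p = 0.117). Without the 0.5 h array, these became 0.45 (adjusted p = 0.0333) and a called late difference (adjusted p = 0.0368). In 16 of 17 settings each of these 2 differences stayed uncalled.

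Socs1 showed no called change. Its single probe set stood at 0.065 at 0 h, at 0.034, 0.12, -0.091 and 0.020 in the early window, at -0.066, 0.24, -0.30 and 0.00 in the middle window, and at -0.028, -0.026, -0.072 and 0.073 in the late window. Its extremes were the neighbouring arrays at 3.0 and 3.5 h, a step of -0.53, which 0.55% of genes matched or passed downward. Bcl3 (-0.63) and Il6st (-0.40) also had their largest step between these arrays. As large a downward step was found in 0.198% and 1.9% of genes.

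**Figure D1:**
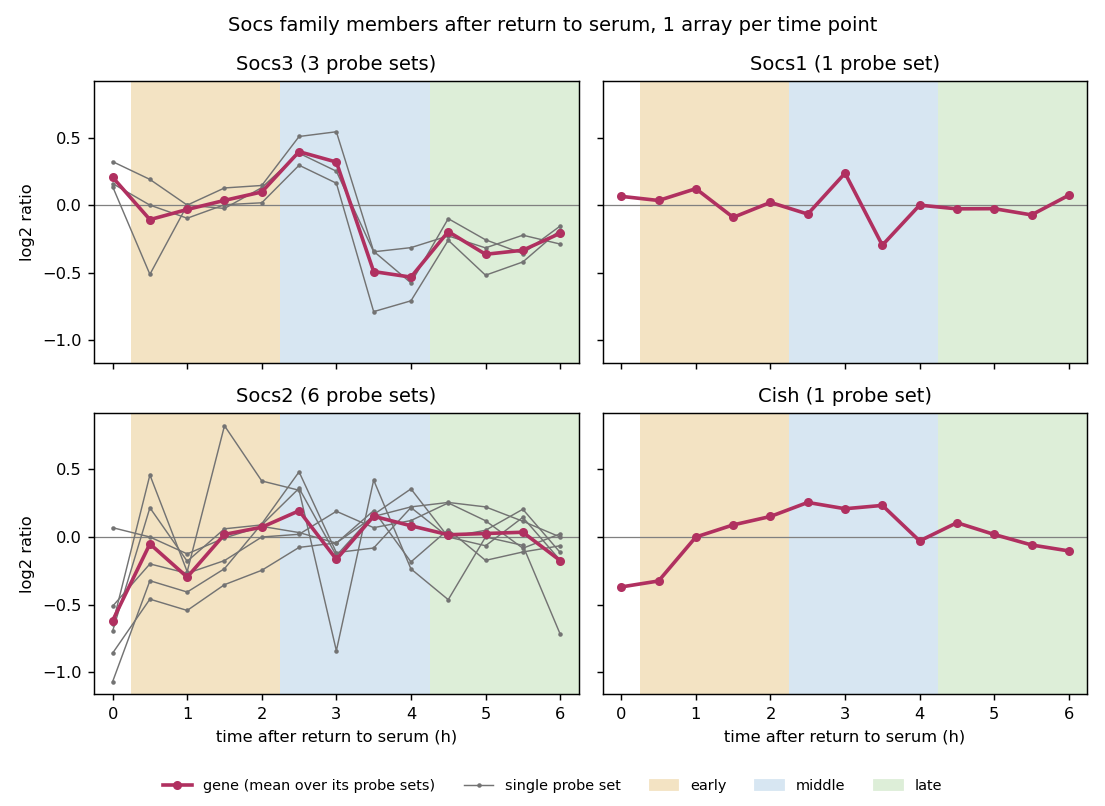
Log2 ratio of Socs3, Socs2, Cish and Socs1 on the 13 arrays against hours after the return of serum, with 1 panel per gene, thin lines for probe sets and the thick line for their mean. Socs3 is at 0.40 at 2.5 h and at -0.53 at 4.0 h, and Socs2 has its lowest mean, -0.62, at 0 h.

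Stat3 fell over the course. Its log2 ratio was 0.27 at 0 h, 0.50, 0.22, 0.25 and 0.33 in the early window, 0.20, 0.090, -0.011 and -0.13 in the middle window, and -0.066, -0.19, -0.082 and -0.16 in the late window. Early and middle arrays did not overlap, with 0.22 as the lowest early value and 0.20 as the highest middle value. The share of all genes whose windows separate in this way was not counted, here or for other members and probe sets. Such separations are therefore descriptions only. Stat3 was at 1.17-fold of its 0 h value at 0.5 h and at 0.727-fold at 5.0 h. Middle minus early was -0.29 ± 0.077 (means 0.039 and 0.33, adjusted p = 0.0162), and late minus 0 h was -0.40 ± 0.12 (means -0.13 and 0.27, adjusted p = 0.0347).

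Of the 4 Stat3 probe sets, 2 were called in both falls. Probe set 1426587_a_at stood at 0.53 at 0 h, at 0.64, 0.66, 0.59 and 0.67 in the early window, at 0.26, 0.17, -0.097 and -0.32 in the middle window, and at 0.00, -0.099, -0.16 and -0.32 in the late window. Its early arrays are nearly level and lie well above all middle and late ones, with a middle minus early difference of -0.64 ± 0.11 (adjusted p = 0.00116). Probe set 1460700_at fell likewise, by 0.43 ± 0.10 on the log2 scale (adjusted p = 0.00871). Probe set 1459961_a_at had differences in the same direction that were not called, -0.16 ± 0.13 in middle minus early and -0.37 ± 0.21 in late minus 0 h. Probe set 1424272_at was highest at 4.0 h (0.22) and lowest at 5.0 h (-0.24), and none of its window comparisons was called. It is the one kept when each gene is given a single probe set by name, and Stat3 then stood at 0.081 (adjusted p = 0.519) for middle minus early and at 0.095 for late minus 0 h. The first Stat3 fall was also not called without the 4.0 h array (adjusted p = 0.0520), and the second was not called without the 5.0 h array (0.0656) or the 6.0 h array (0.0579), or with a variance trend and robust prior (0.0627).

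Lifr had the largest fall of the receptor chains. It stood at 0.46 at 0 h, at 0.55, 0.45, 0.29 and 0.17 in the early window, at -0.20, -0.11, -0.16 and -0.26 in the middle window, and at -0.15, -0.12, -0.15 and -0.034 in the late window. Every array up to 2.0 h lay above every later array, and the largest step, -0.36, came between 2.0 and 2.5 h. Middle minus early was -0.54 ± 0.075 (means -0.18 and 0.36, adjusted p = 3.93e-04), a 0.686-fold change. Late minus 0 h was -0.58 ± 0.12 (means -0.11 and 0.46, adjusted p = 0.00464).

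Between the first and the second hour after serum, a fall of Lifr was called in 1 of 3 probe sets and not for the gene. The difference was -0.28 ± 0.080 over the gene mean (adjusted p = 0.102). It was -0.057 in 1425107_a_at and -0.26 in 1450207_at, neither of them called. In probe set 1454984_at it was -0.51 ± 0.12 (adjusted p = 0.0467). This probe set had 0.78 at 0 h, 0.92, 0.98, 0.52 and 0.36 in the early window, -0.19, -0.41, -0.21 and -0.48 in the middle window, and -0.27, -0.050, -0.017 and 0.00 in the late window. Its lowest value was at 4.0 h, and all late arrays lay above it. Middle minus early was -1.02 ± 0.12 there (adjusted p = 1.89e-04) and -0.49 ± 0.099 in 1425107_a_at (adjusted p = 0.00358). Probe set 1450207_at lay between -0.053 and 0.24 on every array but that at 0.5 h, where it was at 0.52. With that probe set alone, neither Lifr difference was called (-0.13, adjusted p = 0.375, and -0.24, adjusted p = 0.304).

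Osmr took another course, with its highest values in the middle window. It stood at 0.030 at 0 h, at 0.044, -0.013, 0.032 and -0.053 in the early window, at 0.065, 0.28, 0.24 and 0.0045 in the middle window, and at -0.0083, -0.21, -0.28 and -0.21 in the late window. All late arrays lay below all middle ones, by the smallest margin between 4.0 and 4.5 h. The rise toward the middle window, 0.14 ± 0.072, was not called (adjusted p = 0.171). Late minus middle was -0.32 ± 0.072 (means -0.18 and 0.15, adjusted p = 0.0114), a 0.799-fold change. Probe set 1418674_at had the clearest peak, with 0.35 and 0.37 at 3.0 and 3.5 h and -0.38 and -0.37 at 5.5 and 6.0 h. Its late minus middle difference was -0.46 ± 0.098 (adjusted p = 0.00889). That difference was not called in 1418675_at (-0.34 ± 0.12, adjusted p = 0.0791) or in 1459217_at (-0.16 ± 0.072, adjusted p = 0.174). The latter spanned only 0.33 over all arrays.

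Il6st, the shared chain, had no called change as a gene. It stood at 0.014 at 0 h, at -0.076, 0.20, -0.016 and 0.20 in the early window, at 0.0045, 0.14, -0.26 and -0.14 in the middle window, and at -0.0031, 0.0011, 0.087 and -0.19 in the late window. One of its 4 probe sets, 1437303_at, ran upward, with -0.33 at 0 h, -0.25, 0.038, -0.19 and -0.066 in the early window, -0.094, -0.18, 0.00 and -0.050 in the middle window, and 0.033, 0.25, 0.39 and 0.092 in the late window. In that probe set all late arrays lay above all middle ones and late minus 0 h was 0.52 ± 0.14 (adjusted p = 0.0208). The remaining probe sets had late minus 0 h differences of -0.36, -0.21 and -0.11, none of them called. The gene mean thus joins a rising probe set with others that had no called change.

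Bcl3 had the widest range of the members. Its single probe set stood at 0.22 at 0 h, at 0.17, 0.00, 0.083 and -0.071 in the early window, at 0.32, 0.78, 0.16 and 0.089 in the middle window, and at -0.091, -0.35, -0.52 and -0.26 in the late window. The 3.0 h array was highest and the 5.5 h array lowest, a 2.47-fold span. Of all genes, 97.8% had a range no wider. Relative to 0 h, Bcl3 was at 1.48-fold at 3.0 h, and its lowest value came at 5.5 h. All late arrays lay below all others, and late minus middle was -0.64 ± 0.13 (means -0.31 and 0.34, adjusted p = 0.00672), a 0.640-fold change. The rise toward the middle window, 0.29 ± 0.13, was not called (adjusted p = 0.117). Late minus 0 h was -0.52 ± 0.20 (adjusted p = 0.0903), and was called without the 3.0 h array (adjusted p = 0.0211). In 16 of 17 settings this difference stayed uncalled.

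Pim1 fell modestly. It stood at 0.19 at 0 h, at 0.31, 0.29, 0.12 and -0.073 in the early window, at -0.036, -0.029, -0.27 and -0.26 in the middle window, and at -0.095, -0.016, -0.29 and -0.052 in the late window. The 2.0 h array already lay among the middle values. Middle minus early was -0.31 ± 0.093 (means -0.15 and 0.16, adjusted p = 0.0273), which came mostly from probe set 1435458_at (-0.45 ± 0.14, adjusted p = 0.0315). Leaving out any one of 4 arrays ended the Pim1 call, with adjusted p = 0.0748 (0.5 h), 0.0838 (1.0 h), 0.0818 (3.5 h) and 0.0796 (4.0 h).

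**Figure D2:**
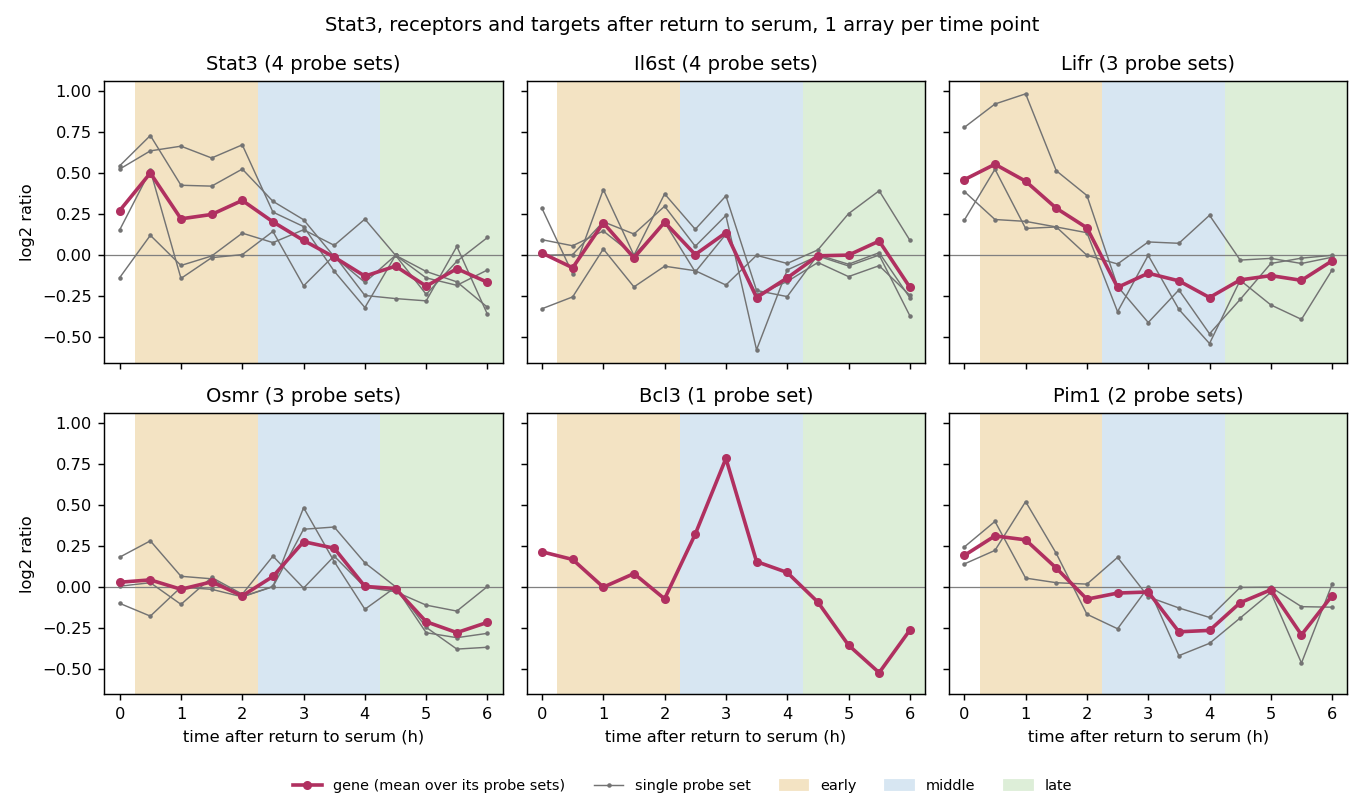
Log2 ratio of Stat3, Lifr, Osmr, Il6st, Bcl3 and Pim1 on the 13 arrays against hours after the return of serum, with thin lines for probe sets and the thick line for their mean. Lifr is above 0 on all arrays to 2.0 h and below 0 after that, and Bcl3 is at 0.78 at 3.0 h and at -0.52 at 5.5 h.

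The members called in each comparison can be read against all genes. Between 0 h and the early window 0 of 10 members were called by limma, where 3.26% of all genes were (1.46% higher, 1.81% lower). At an unadjusted p under 0.05 there were 2 members, and 19.9% of all genes. Between the first and the second hour, again 0 of 10 were called by limma, where 2.35% of genes were (1.19% higher, 1.15% lower), with 3 members and 12.6% of genes at an unadjusted p under 0.05. Middle minus early called 3 of 10, Lifr, Stat3 and Pim1, where 22.2% of genes were called. All of the 3 were lower, and of all genes 14.4% were called lower and 7.74% higher. Late minus middle called Bcl3 and Osmr, 2 of 10 and both lower, where 12.3% of genes were called, 10.3% higher and 2.06% lower. Late minus 0 h called 3 of 10, Socs2 higher and Stat3 and Lifr lower, where 18.7% of genes were called, 8.80% higher and 9.90% lower. Whether the members differ from other genes in these shares was not tested.

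The median difference of the members was -0.030 for early minus 0 h, equal to the value of all genes at this precision, and below that of all genes in the other comparisons. It was -0.048 for the second against the first hour, against 0.0058 for all genes. It was -0.064 for middle minus early, against -0.00087 for all genes, and -0.13 for late minus middle, against 0.024. For late minus 0 h it was -0.26, against -0.0080. The median range of a member over the arrays was 0.66 on the log2 scale, against 0.45 for all genes. Ranges no wider than those of Socs3, Socs2 and Lifr were found in 92.4%, 88.4% and 88.3% of genes, and no wider than that of Il6st in 51.5%.

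Of the 28 probe sets, fitted with all 45037, 2 rose and 0 fell between 0 h and the early window, where 3.02% of probe sets were called. Both belong to Socs2, 1438470_at (0.85 ± 0.21, adjusted p = 0.0381) and 1442586_at (0.74 ± 0.18, adjusted p = 0.0365). Between the first and the second hour 0 rose and 1 fell (1.41% called), the Lifr probe set given above. Middle minus early had 2 that rose and 5 that fell (18.0% called). Late minus middle had 0 and 2 (9.41% called), and late minus 0 h had 5 and 4 (14.7% called).

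**Figure D3:**
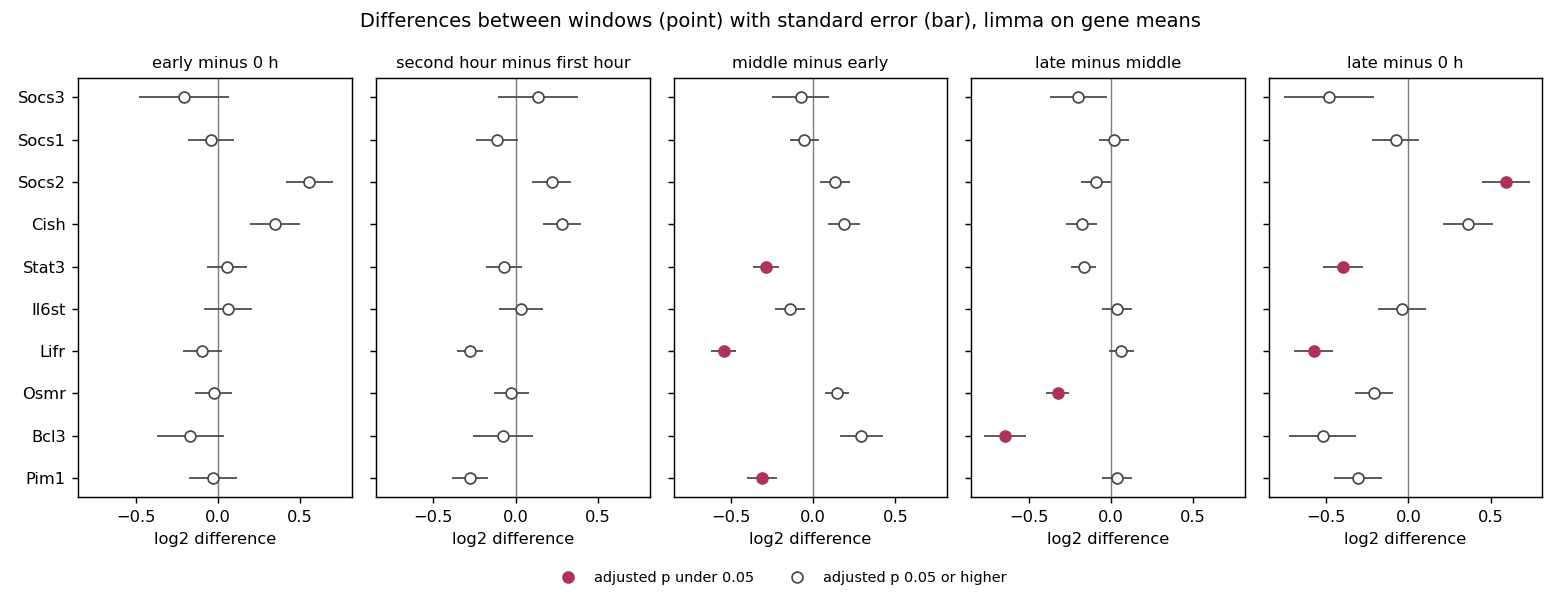
Differences between windows for the 10 members on the log2 scale, with the standard error of the limma fit as bars and filled points for an adjusted p under 0.05. Lifr has the largest fall between the early and middle windows, -0.54, and Bcl3 between the middle and late windows, -0.64.

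A smooth course over the 13 arrays, fitted as a spline of time with 4 degrees of freedom, was called for 8 of 10 members, where 38.0% of all genes were called. Lifr had the strongest course (F = 31.4, adjusted p = 1.37e-05), followed by Cish (adjusted p = 4.63e-04), Stat3 (4.66e-04), Bcl3 (9.67e-04), Osmr (0.00477), Pim1 (0.00617), Socs2 (0.0202) and Socs3 (0.0442). Socs1 (adjusted p = 0.844) and Il6st (0.554) had no called course. With 1 probe set per gene, the courses of Lifr (adjusted p = 0.145), Stat3 (0.453) and Pim1 (0.0535) were not called. With the 0 h array left out, the Socs2 course was no longer called (adjusted p = 0.449). The Socs3 course was lost with any of the 0.5 to 3.0 h arrays or the 4.0 h array left out (adjusted p from 0.0608 to 0.121), and with a spline of 3 degrees of freedom (0.0623). Of the 28 probe sets, 15 had a called course (30.7% of all probe sets).

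The study looked for genes that cycle, so a wave of cosine and sine terms that repeats every 2 h was added to a slower trend of 3 degrees of freedom. No member was called by limma (0 of 10, and 0 of 18193 genes), all at an adjusted p of 0.998. At an unadjusted p under 0.05 there was 1 member, Pim1, and 3.96% of genes. The fitted peak-to-trough size was 0.28 for Socs3, 0.24 for Pim1, 0.16 for Socs1 and 0.13 for both Bcl3 and Il6st, and 0.028 to 0.093 for the other members. With 1 array each 0.5 h, a 2 h cycle has only 4 arrays, and a pulse at other spacings is not covered by this model. With a period of 3 h, 74 genes were called, 0 of them members.

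Members with alike courses are described by Pearson's r over the 13 arrays, which all members share, with no test among the 45 pairs. Osmr and Bcl3 ran closest together (r = 0.91, Spearman's rho = 0.91, and r = 0.83 without 2 arrays). Both were highest at 3.0 h and lowest at 5.5 h. For every pair, the 2 arrays left out were those farthest from the median of the first-named gene. Leaving out arrays by the other gene was not done and can give another value. Lifr and Pim1 followed (r = 0.89, rho = 0.80, 0.81 without 2 arrays), then Stat3 and Lifr (r = 0.79, rho = 0.66, 0.71 without 2 arrays) and Stat3 and Pim1 (r = 0.70, rho = 0.54, 0.67 without 2 arrays). Socs2 and Cish had r = 0.65 (rho = 0.60, 0.43 without 2 arrays). Cish and Lifr ran opposite, with r = -0.62 (rho = -0.51), but with -0.12 once the 2 arrays were left out. Socs2 and Lifr behaved likewise (r = -0.61, rho = -0.76, -0.27 without 2 arrays). Socs1 and Socs2 had r = -0.59 (rho = -0.73, -0.69 without 2 arrays).

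**Figure D4:**
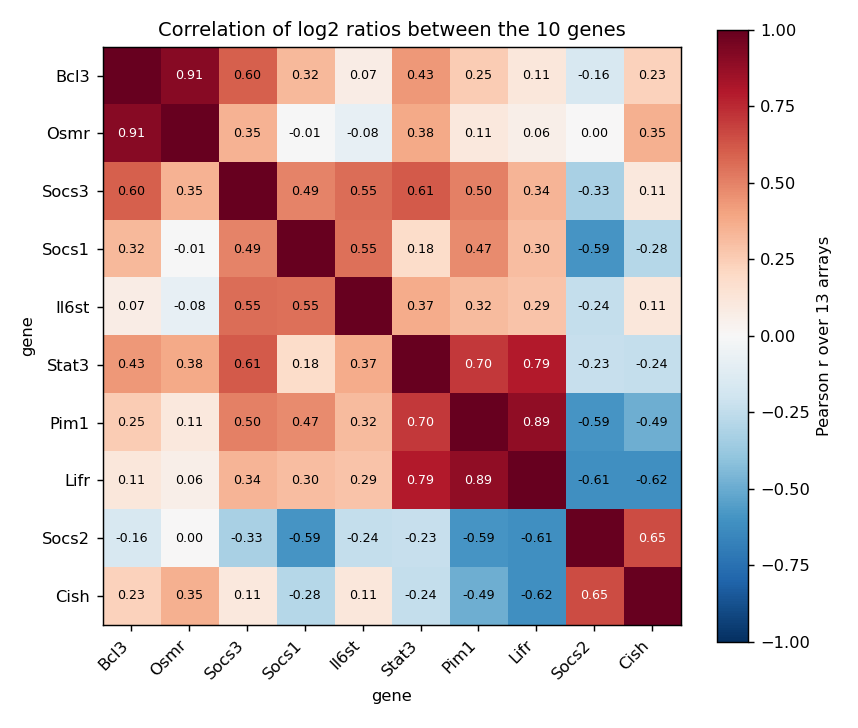
Pearson's r between the log2 ratios of the 10 members over the 13 arrays, as a matrix with the members on both axes and r as colour and number. Osmr and Bcl3 (0.91) and Lifr and Pim1 (0.89) are the most alike pairs.

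For 4 members, the genes with the most similar course were sought among genes whose range was at least 50% of the member's. Nearest to Socs3 among 8655 genes were Vasp (r = 0.83), which encodes an actin regulator, Myo10 (0.80), an unconventional myosin, and Hgf (0.78), hepatocyte growth factor. Nearest to Socs2 among 10796 were Kdm5d (0.90), Fgd3 (0.88) and Gbx1 (0.88). Stat3 had closer neighbours, Ctse (0.97), Ptprd (0.96) and Plod2 (0.96) among 13358 genes. Nearest to Osmr among 15827 were Bcl3 (0.91), Gm5485 (0.91) and Glra1 (0.86). These names are a description, since the highest of so many correlations over 13 arrays is bound to be large.

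The rest of the pathway was covered by gene lists, whose counts stand beside the share of all genes called in the same direction. These shares were 1.46% higher and 1.81% lower in early minus 0 h, 1.19% and 1.15% in the second against the first hour, 7.74% and 14.4% in middle minus early, 10.3% and 2.06% in late minus middle, and 8.80% and 9.90% in late minus 0 h. Whether a list differs from them was not tested. Of 6 measured ligands of gp130-type receptors, 1 rose and 0 fell between 0 h and the early window, namely Lif, whose call ended in 8 of the fits with 1 array left out. Clcf1, which encodes a cytokine of the ciliary neurotrophic factor type, was 1.18 ± 0.21 higher in the second than in the first hour (adjusted p = 0.00923, lost without the 0.5 or the 2.0 h array and after quantile normalization). Between the early and the middle window 2 of 6 ligands rose (7.74% of all genes) and 0 fell. They were Clcf1 (1.26 ± 0.26, adjusted p = 0.00452, lost with the other window borders) and Il11, interleukin 11 (0.65 ± 0.13, adjusted p = 0.00301). In late minus middle 0 rose and 1 fell, and in late minus 0 h 1 rose and 1 fell.

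Among 11 other cytokine receptor genes, Ghr, the growth hormone receptor, fell most. Middle minus early was -0.54 ± 0.070 (adjusted p = 2.90e-04), the same size as the fall of Lifr, and late minus 0 h was -0.97 ± 0.11 (adjusted p = 2.10e-04). In these comparisons 2 rose and 1 fell, and 0 rose and 2 fell, while late minus middle had 0 and 1. In the first 2 comparisons, early minus 0 h and the second against the first hour, 0 of 11 were called by limma, with 1 and 0 at an unadjusted p under 0.05.

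Of 9 Janus kinases and other STATs, 0 rose and 1 fell in early minus 0 h, and 0 were called by limma in the second against the first hour (1 at an unadjusted p under 0.05). In middle minus early 0 rose and 2 fell. They were Stat5a (-0.41 ± 0.083, adjusted p = 0.00389) and Jak1 (-0.21 ± 0.057, adjusted p = 0.0169). Both calls were lost with 1 probe set per gene and without the 0, 0.5 and 1.0 h arrays, and that of Jak1 also without the 3.5 h array. Late minus middle had 0 and 1, and late minus 0 h had 0 and 2, Stat2 (-0.58 ± 0.089, adjusted p = 9.23e-04) and Jak1 (-0.27 ± 0.091, adjusted p = 0.0493). The late Jak1 call ended in 10 of the fits with 1 array left out, and the late Stat2 call was lost with 1 probe set per gene.

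The other 13 brakes on the pathway moved at different times. Ptpn2, a phosphatase that acts on Janus kinases and STATs, was 0.72 ± 0.15 higher in the late window than at 0 h (adjusted p = 0.00479). Pias3 changed more in late minus 0 h, and downward, by -0.77 ± 0.19 (adjusted p = 0.0107). In middle minus early Pias3 was also lower, by -0.44 ± 0.12 (adjusted p = 0.0154). Both Pias3 calls were lost with the other window borders. Socs5 was 0.89 ± 0.13 higher in the second than in the first hour (adjusted p = 0.00317, lost without the 0.5 or the 2.0 h array). Socs4 fell in middle minus early (-0.25 ± 0.054, adjusted p = 0.00454). Over the list, 2 rose and 0 fell in early minus 0 h and likewise in the second against the first hour. In middle minus early 0 rose and 4 fell, in late minus middle 2 rose and 0 fell, and in late minus 0 h 2 rose and 3 fell.

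Of 25 other genes known as STAT3 targets, most of which answer to further pathways too, 4 rose and 0 fell in early minus 0 h (1.46% and 1.81% of all genes). Myc, the growth regulator (2.34 ± 0.25), and Ier3, an early stress-response gene (2.47 ± 0.34), rose far more than any of the 10 members, whose largest difference there was the uncalled 0.56 of Socs2. In the second against the first hour 1 rose and 3 fell, in middle minus early 4 rose and 10 fell (7.74% and 14.4% of all genes), and in late minus middle 2 rose and 3 fell (10.3% and 2.06% of all genes). In middle minus early, Ccnd1, cyclin D1, rose by 0.86 ± 0.10 (adjusted p = 2.20e-04) and Ier3 fell by 1.02 ± 0.21 on the log2 scale (adjusted p = 0.00450). In late minus 0 h 5 rose and 2 fell (8.80% and 9.90% of all genes), among them Timp1, an inhibitor of matrix proteases (1.28 ± 0.24, adjusted p = 0.00289), and Igfbp5, an insulin-like growth factor binding protein (-1.02 ± 0.19, adjusted p = 0.00294). A smooth course was called for 5 of 6 ligands, 3 of 11 receptors, 4 of 9 kinases and STATs, 8 of 13 brakes and 15 of 25 targets, where 38.0% of all genes were called.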

How the data were processed

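Biotin-labelled RNA of 13 time points had been hybridised to 1 Affymetrix mouse array each, per the labels. The deposited values are linear ratios, each apparently relative to a middle value of its own probe set. The submitters' processing notes name RMA without a version. The way these ratios were made is not described in the labels or headers. They carry no brightness, so neither dim probe sets nor background could be treated. Of 45101 probe sets, 64 array controls were left out. Of the rest, 34945 had 1 gene in the platform annotation, 932 several and 9160 none, and only those with 1 were named. None of the probe sets of a member named a further gene, and all arrays differed from each other.

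The log2 ratio, averaged per gene, was fitted in R 4.3.3 by limma 3.58.1, with moderated two-sided tests, over all 18193 genes, and separately over all probe sets, with Benjamini-Hochberg adjusted p under 0.05 as the threshold. All adjusted p-values in the text are from these fits. One fit of window means gave early minus 0 h, middle minus early, late minus middle and late minus 0 h. A fit with the early window parted into hours gave second hour (1.5 and 2.0 h) minus first hour (0.5 and 1.0 h). Splines gave the smooth course and the trend under the 2 h oscillation. Errors are standard errors of these fits. The fits were also run on simulated data with independent noise on each array. Shifts shared by the genes of an array and the wider spread of the 0 to 1.0 h arrays were not simulated. Tables used pandas 2.3.3 and numpy 2.4.6, and figures matplotlib 3.10.9, under Python 3.11.15.

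Named were all members and, per pathway list and comparison, up to 4 called genes with the largest change, of which those that best show each list are printed. For Socs3, Socs2, Stat3 and Osmr the 3 genes with the highest r were added. The members and lists were chosen with earlier results of these data known. Alternatives were quantile normalization, median centring, a variance trend with a robust prior, 1 probe set per gene (chosen by the suffix of its name), other window borders (early to 2.5 h, middle to 4.5 h), other splines and periods, and leaving out each array. A fit without the 0, 0.5 and 1.0 h arrays was added after the data were examined. Proteins were not compared.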

Additional observations from a re-analysis of the deposited data

Results flagged for a closer look

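In 2 of 30 sets of 4 arrays, each 1 member in 1 window, a single array lay far from the rest by Dixon's test at its 95% critical value. Chance alone marks about 1 in 20 such sets. The late window of Socs2 had -0.17 at 6.0 h, while the other arrays lay between 0.017 and 0.035 (gap over range 0.911). Late minus 0 h of Socs2 was called with and without that array. The middle window of Cish had -0.029 at 4.0 h, while the others lay between 0.21 and 0.26 (gap over range 0.836). No window comparison of Cish was called with that array left out.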

How the results depend on the processing

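Of 50 differences (10 members in 5 comparisons), 8 were called, 0 of these in every setting run, and 4 others were called in some setting. Called members in early minus 0 h numbered 0, 1 with 1 probe set per gene, and 0 to 2 with 1 array left out. In middle minus early they numbered 3, 1 after quantile normalization, 0 with 1 probe set per gene, 1 without the 0, 0.5 and 1.0 h arrays (added after the data were examined), and 1 to 3 with 1 array left out. In late minus middle they numbered 2, and 0 with the other window borders, where 13 genes in all were called instead of 2240. In late minus 0 h they numbered 3, and 1 both after quantile normalization and with 1 probe set per gene. Smooth courses numbered 8, and 5 with 1 probe set per gene.

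Signs turned as follows, and beyond the construction of each setting the cause was not tested. With 1 probe set per gene, which replaces the mean by 1 course, early minus 0 h was -0.12 for Il6st, 0.00089 for Lifr and 0.036 for Osmr. The second against the first hour was -0.043 for Socs3, 0.035 for Stat3 and 0.052 for Osmr. Stat3 stood at 0.081 in middle minus early and at 0.095 in late minus 0 h, neither of them called. Over the gene mean these 2 Stat3 differences had been called, at -0.29 and -0.40, unlike the others named here for members. Late minus middle was -0.087 for Il6st, -0.11 for Lifr and -0.013 for Pim1. Outside the members, Stat2 in early minus 0 h became 0.030 and Dcn in late minus 0 h became 0.069. Quantile normalization gave Pim1 0.013 in early minus 0 h, Stat3 0.026 in the second against the first hour, and Socs1 -0.030 and Pim1 -0.012 in late minus middle. Median centring gave Socs1 -0.0078 in late minus middle, and the fit without the 3 first arrays gave Socs1 0.0036 in middle minus early.

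With 1 array left out, the ranges that crossed 0, for uncalled values alone, were these. In early minus 0 h, Stat3 ran from -0.0038 to 0.089 and Pim1 from -0.083 to 0.046. In the second against the first hour, Stat3 ran from -0.21 to 0.069, Il6st from -0.10 to 0.17, Osmr from -0.069 to 0.017 and Bcl3 from -0.16 to 0.0059. In middle minus early, Socs3 ran from -0.23 to 0.076 and Socs1 from -0.14 to 0.035. In late minus middle, Socs1 ran from -0.070 to 0.11, Il6st from -0.029 to 0.10 and Pim1 from -0.0036 to 0.096. In late minus 0 h, Il6st ran from -0.079 to 0.014. Without the 0 h array no contrast with 0 h exists.

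Quantile normalization also ended the calls of Stat3 (adjusted p = 0.0585) and Pim1 (0.0578) in middle minus early, and of Socs2 (0.0513) and Stat3 (0.0776) in late minus 0 h. A variance trend with a robust prior ended the late Stat3 call (0.0627). Without the 0, 0.5 and 1.0 h arrays, Stat3 (adjusted p = 0.0801) and Pim1 were not called in middle minus early. The other window borders ended those of Osmr (0.0571), Bcl3 (0.0888), Pim1 (0.0572) and, in late minus 0 h, Lifr (0.0746). Over all genes, early minus 0 h called 594, 45 after quantile normalization, 298 without the 1.5 h array and 1431 without the 0.5 h array. The second against the first hour called 427, 109 after quantile normalization, 30 without the 2.0 h, 39 without the 0.5 h and 702 without the 1.0 h array. Middle minus early called 4033, 2426 with the other borders and 1788 without the 3 first arrays. Late minus middle called 2240, and 1105, 1277 and 1400 without the 6.0, 5.5 or 2.5 h array. Late minus 0 h called 3402, and 1902 after quantile normalization. Of 53 pathway-list calls selected by the rule, 14 held in every setting.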

Other observations

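Myoblast genes outside the pathway moved between the middle and late windows. Of 10 measured markers 5 rose and 0 fell, where 10.3% of genes were called higher. Myf5, a myogenic determination factor, was 0.53 ± 0.13 higher in the late than in the middle window (adjusted p = 0.0155), after a fall of -0.60 ± 0.13 in middle minus early (adjusted p = 0.00421). The other called markers included Tnni1, Acta1 and Myog (0.32, 0.31 and 0.25). The calls of these 4 genes all ended without the 6.0 h array and with the other window borders. Cdh15, M-cadherin, was -0.57 ± 0.11 in late minus 0 h (adjusted p = 0.00416), the one marker of 10 called there. Of 14 markers of blood, endothelial, epithelial and fibroblast-like cells, 1 rose and 2 fell in late minus 0 h. They were Adgre1 (0.55 ± 0.13), Pdgfra (-0.58 ± 0.10) and Dcn (-0.36 ± 0.089). Their part in the courses of the members was not tested.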
